A study of Mus musculus with 6 samples.

Results

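The genes of mitochondrial transcription, DNA replication and RNA turnover were followed in mouse morulae depleted of YY1. The 10 genes were *Pnpt1*, *Supv3l1*, *Tfam*, *Tfb1m*, *Tfb2m*, *Polrmt*, *Polg*, *Twnk*, *Lrpprc* and *Slirp*, out of 55364 genes in the table of expression values. *Pnpt1* was picked for its strong fall in *Yy1* KD morulae, so its values are given as a description without a test. The other 9 genes were selected by their role in the same organelle, with earlier results of these data known, and they were tested. *Pnpt1* went from a mean of 31.3 to 4.61 TPM. The means of the other 9 genes in *Yy1* KD were between 86.1% and 118% of those in control KD, and none of the 9 was called. Calls over all genes tested were 4.2% lower and 1.92% higher in *Yy1* KD, and 0 of 9 does not stand apart from such shares.

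Zygotes of the cross BDF1 x BDF1 received siRNA, either a control one or one that targets *Yy1*, by injection at the zygote stage, and were cultured in KSOM medium and collected as morulae. *Yy1* encodes a zinc finger transcription factor, and the comparison asks how the transcriptome changes when it is depleted up to the morula stage. Each group had 3 libraries, each made from a pool of 10 morulae with the SMART-Seq Stranded kit, a method for minute RNA inputs that relies on cDNA amplification. An siRNA lowers the transcript without deleting the gene, and it was given to the whole embryo. The sex of the pooled embryos was not recorded in the labels. Nothing states that the libraries of a group came from separate days or matings, so p-values rest on the spread between these libraries. For each gene that spread is estimated in part from other genes of like level.

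Mitochondria keep a small circular genome of their own. It is transcribed from both strands into long precursor RNAs, and every protein that copies, transcribes or degrades it is encoded in the nucleus. Transcripts of the heavy strand hold most of the genes, whereas much of the RNA of the light strand is noncoding and is removed. The protein of *Pnpt1*, polynucleotide phosphorylase, degrades RNA from the 3′ end and works with the helicase SUV3, the product of *Supv3l1*. In preimplantation embryos, mitochondrial DNA is partitioned among the dividing cells and is little replicated before the blastocyst stage.

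Expression was measured as TPM, read pairs per base of exon, scaled so that every library has an equal total, so that levels can be compared between genes. The libraries held between 11793509 and 24417789 read pairs on genes, recovered from TPM and exon length, and between 16696 and 17687 genes with at least 1 TPM. *Yy1* itself was at 96.0, 100.2 and 89.8 TPM in control KD and at 8.73, 8.90 and 8.32 TPM in *Yy1* KD, a log2 difference of -3.32. All 12 morula markers examined passed the filter, with *Dppa3* between 4329 and 4909 TPM and *Pou5f1* between 649 and 742 TPM over the 6 libraries. One of the 12, *Tfap2c*, fell (log2 difference -0.55, limma adjusted p = 0.0174). Over all genes tested, 4.2% were called as lower and 1.92% as higher in *Yy1* KD. The log2 differences of the 12 markers ran from -0.86 to 0.07, with 9 lower and 3 higher. Of 10 markers of cumulus and granulosa cells, 8 stayed under 1 TPM in every library, 5 of them at 0. Their summed level was between 9.65 and 12.0 TPM in control KD and, in *Yy1* KD, between 9.35 and 10.3 TPM, most of it *Amhr2*. Of 8 oocyte transcripts, 0 were called by limma, and 0 reached an unadjusted p under 0.05. The table listed 0 genes of the mitochondrial genome, so the RNAs on which these proteins act were not analysed here.

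*Pnpt1* (ENSMUSG00000020464.15) lies on the plus strand of chromosome 11 (chr11:29130744-29161828, GRCm38) and overlaps no exon of other genes. The control KD libraries had 32.6, 24.6 and 36.6 TPM, and those of *Yy1* KD had 4.70, 6.72 and 2.41 TPM. The lowest control value was far above the highest value of *Yy1* KD. The mean went from 31.3 ± 6.14 TPM to 4.61 ± 2.16 TPM (SD, n = 3 each), which is 14.7% of the control, and the difference was -2.58 on the scale of log2(TPM + 1). This scale understates changes of genes with low TPM. Ordered by size, it was number 26 among the falls of the 17353 genes tested, and number 11 among the 8084 genes whose mean TPM was 10 or more.

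The values of *Pnpt1* rested on 594, 892 and 961 read pairs in control KD and on 128, 130 and 42 read pairs in *Yy1* KD. In *Yy1* KD replicate 3, the 95% Poisson interval was 30.3 to 56.8 pairs, or 1.74 to 3.26 TPM, and it did not reach the intervals of replicate 1 (3.92 to 5.59 TPM) or replicate 2 (5.62 to 7.98 TPM). These intervals cover counting error only. The libraries were made from different pools of embryos, and the coefficient of variation of *Pnpt1* over them was 46.8% in *Yy1* KD and 19.6% in control KD. *Pnpt1* was left at 15.0%, 21.5% and 7.71% of its control mean, and *Yy1* in the same libraries at 9.16%, 9.33% and 8.72%. Fewer cells that express a gene and less of its RNA per cell cannot be told apart in pooled embryos.

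**Figure D1:**
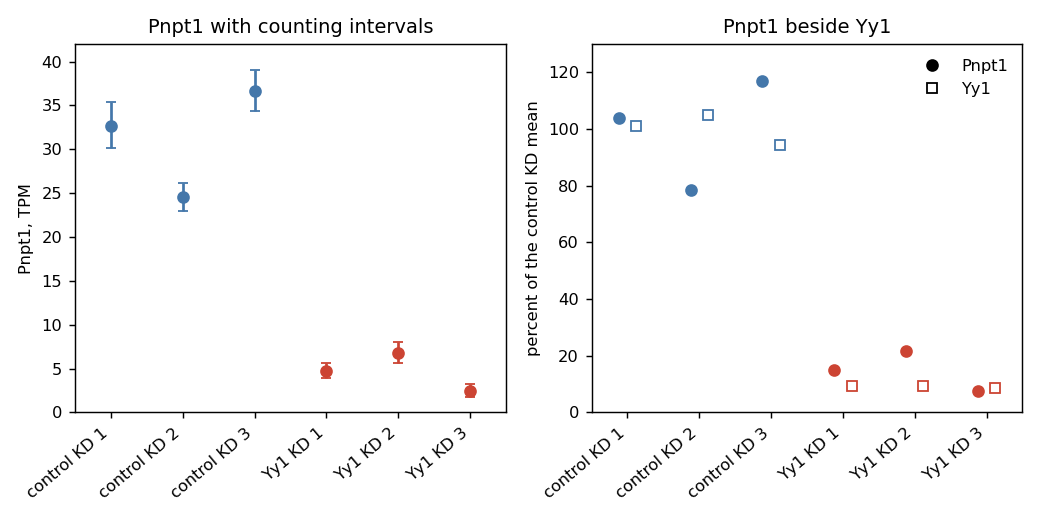
Left, TPM of *Pnpt1* in each library (vertical axis, linear) with 95% Poisson intervals from the recovered read pairs, control KD in blue and *Yy1* KD in red. Right, *Pnpt1* (filled circles) and *Yy1* (open squares) in each library as a percentage of their control KD mean. *Pnpt1* is at 7.71% to 21.5% in *Yy1* KD, a wider range than that of *Yy1*, 8.72% to 9.33%.

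The sequences around the transcription starts were compared because YY1 is known to bind a short motif that can lie at promoters. The RefSeq promoter windows (GRCm38.p6) reach from 250 bases before to 50 bases after a start and were found for all 10 genes, with 11 windows in total since *Twnk* has a pair of starts. That of *Pnpt1*, chr11:29130494-29130793 on the plus strand, is shown because this gene had the largest fall of the 10. Capitals mark the letters ATGGCGGC, whose first 3 are the annotated start codon at position 15 of the transcript.

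Pnpt1 promoter: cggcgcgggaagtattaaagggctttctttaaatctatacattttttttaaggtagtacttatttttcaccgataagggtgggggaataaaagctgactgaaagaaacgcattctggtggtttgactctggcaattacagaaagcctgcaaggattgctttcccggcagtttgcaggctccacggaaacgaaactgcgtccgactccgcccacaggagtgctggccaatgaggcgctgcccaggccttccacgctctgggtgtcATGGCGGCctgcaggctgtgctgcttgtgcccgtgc

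The YY1 consensus GCCATNTT (AANATGGC on the other strand) was not in this window. Of the 10 genes, *Slirp* alone held it, at 2 places, and 6.05% of the 32851 mouse promoters held it at least once. The shorter form CCATNTT was in the promoter of *Slirp* alone as well and in 16.08% of all promoters. The letters ATGGCGGC (GCCGCCAT on the other strand) are a core of the YY1 motif with a flank. These letters were searched only after the promoter of *Pnpt1* had been seen, so a match there was certain. They were present in *Pnpt1* and in *Slirp* and in 2.24% of all promoters, and in *Slirp* they overlap the upstream consensus. The sites are shown in windows of 30 bases on the strand of the gene, with the matched letters in capitals.

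Pnpt1, ATGGCGGC over the start codon, chr11:29130747-29130776: ctctgggtgtcATGGCGGCctgcaggctgt
Slirp, YY1 consensus from base -85, chr12:87443800-87443829: ccacagcagccGCCATCTTccccatctcga
Slirp, YY1 consensus over the start codon, chr12:87443916-87443945: cattccgttttAACATGGCagcctccgcca

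A match of letters is a description and not a binding site, and its absence covers this window alone. Sites of 2 other factors known at promoters of mitochondrial genes were searched in the same way. The NRF1 motif GCGCATGC (GCATGCGC on the other strand) was present at *Polrmt* and *Tfb2m* and in 2.71% of all promoters, and the ETS motif CCGGAAGT (ACTTCCGG on the other strand) at *Polg*, *Tfam* and *Twnk* and in 3.89%. Neither motif was in the window of *Pnpt1*. Those of the subunits that transcribe and replicate the genome are shown for comparison with the matched letters in capitals, each on the strand of its gene.

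Polrmt, NRF1, chr10:79746696-79746725: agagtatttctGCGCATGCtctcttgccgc
Tfb2m, NRF1, chr1:179546245-179546274: ctaggtcgttcGCATGCGCcattcgtaatg
Tfam, ETS, chr10:71238073-71238102: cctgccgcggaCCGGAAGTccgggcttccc
Polg, ETS, chr7:79466293-79466322: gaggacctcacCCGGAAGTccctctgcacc
Twnk, ETS, chr19:45006436-45006465: actaaccggtgACTTCCGGttccggggttg

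The promoter of *Pnpt1* had a GC content of 52.3% and 15 CpG, and the medians over all promoters were 52.7% and 7 CpG. Except for the first window of *Twnk* (46.7% and 7 CpG), the windows of the other genes had between 52.0% and 70.3% GC and between 16 and 32 CpG. *Pnpt1* thus had a promoter of ordinary GC content, with fewer CpG than those of its partners other than that one window.

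*Supv3l1* (ENSMUSG00000020079.15, chr10:62429209-62449738, minus strand) encodes the helicase that feeds RNA to polynucleotide phosphorylase. Its level was 46.3, 49.7 and 55.2 TPM in control KD and 43.9, 46.2 and 45.9 TPM in *Yy1* KD. The groups did not overlap, but the lowest control value and the highest *Yy1* KD value were nearly equal. The means were 50.4 ± 4.47 and 45.3 ± 1.27 TPM (SD, n = 3 each), a log2 difference of -0.15 (95% interval -0.36 to 0.07, limma adjusted p = 0.385). Of its exon bases, 8.4% are shared with *4930507D05Rik*. The ratio of *Pnpt1* to *Supv3l1* was 0.705, 0.495 and 0.664 in control KD and 0.107, 0.146 and 0.0525 in *Yy1* KD. On the log2 scale its mean went from -0.70 ± 0.27 to -3.42 ± 0.75 (SD, n = 3 each). In control KD the values of *Pnpt1* were all below those of *Supv3l1*. Because *Pnpt1* enters this ratio, it was not tested.

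*Lrpprc* and *Slirp* encode RNA-binding proteins that form a complex and stabilise mitochondrial mRNAs. *Lrpprc* (ENSMUSG00000024120.12, chr17:84705247-84790789, minus strand) had the highest level of the 10 genes, 104.7, 120.7 and 119.5 TPM in control KD and 124.2, 100.5 and 120.2 TPM in *Yy1* KD. The values of both groups covered nearly the same range. The log2 difference was -0.003, with a 95% interval from -0.26 to 0.25 (limma adjusted p = 0.992). Its sign turned under 6 of 14 alternative settings, some of which alter only the filter or the error and cannot move it. *Slirp* (ENSMUSG00000021040.15, chr12:87443896-87452206, plus strand) was at 34.7, 35.8 and 41.4 TPM in control KD and at 37.3, 38.1 and 37.9 TPM in *Yy1* KD. The 3 *Yy1* KD values all lay within the range of the controls (log2 difference 0.02, 95% interval -0.20 to 0.25, limma adjusted p = 0.919). This value is uncertain, since 97.8% of the exon bases annotated for *Slirp* are shared with *Alkbh1* or *Snw1* and read pairs were divided between such genes without regard to strand. The log2 ratio of *Lrpprc* to *Slirp* was 1.63 ± 0.11 in control KD and 1.60 ± 0.18 in *Yy1* KD (SD, n = 3 each).

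*Polrmt* encodes the RNA polymerase of mitochondria, which also makes the primers for replication. It lies on the minus strand at chr10:79736123-79746581 (ENSMUSG00000020329.12). Its level was 57.2, 58.2 and 59.3 TPM in control KD and 50.01, 49.91 and 50.56 TPM in *Yy1* KD. The groups were separated and each was tight, with a coefficient of variation of 1.8% in control KD and 0.7% in *Yy1* KD. The mean was 58.3 ± 1.05 TPM without and 50.2 ± 0.350 TPM with the knockdown of *Yy1* (SD, n = 3 each). The log2 difference was -0.21 with a 95% interval from -0.38 to -0.05. The interval draws in part on the spread of other genes of like level, and not on the tight values of *Polrmt* alone. After adjustment over all genes the difference did not pass the threshold (limma adjusted p = 0.126). Among the 9 genes tested it had the lowest adjusted p.

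*Tfb2m* (ENSMUSG00000026492.11, chr1:179528055-179546267, minus strand) encodes the factor with which the polymerase opens the promoter. It was at 89.0, 76.6 and 71.2 TPM in control KD and at 93.1, 90.3 and 96.0 TPM in *Yy1* KD. All 3 *Yy1* KD values were above the highest control value, in the opposite direction to *Polrmt*. The means were 78.9 ± 9.13 and 93.1 ± 2.85 TPM (SD, n = 3 each), and the log2 difference of 0.24 (95% interval 0.01 to 0.47) was not called (limma adjusted p = 0.193). *Tfam* (ENSMUSG00000003923.14, chr10:71225464-71238280, minus strand), whose protein both packages mitochondrial DNA and starts its transcription, was at 23.3, 26.1 and 24.8 TPM in control KD and at 31.1, 24.8 and 29.8 TPM in *Yy1* KD. One *Yy1* KD library was within the range of the controls and the others were above it. The log2 difference was 0.20 (95% interval -0.08 to 0.47, limma adjusted p = 0.358).

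*Tfb1m* (ENSMUSG00000036983.7, chr17:3519256-3557781, minus strand) is a relative of *Tfb2m* whose protein methylates the ribosomal RNA of the small mitochondrial subunit. It was the least abundant of the 10 genes in control KD, at 4.60, 3.94 and 3.64 TPM, and was at 4.80, 4.74 and 4.73 TPM in *Yy1* KD. The groups did not overlap, with a small gap between them. The log2 difference was 0.19, with a wide 95% interval from -0.20 to 0.58 (limma adjusted p = 0.540). Relative to *Polrmt*, the initiation factors were higher in each *Yy1* KD library than in any control. The log2 ratio of *Tfb2m* to *Polrmt* was 0.43 ± 0.19 in control KD and 0.89 ± 0.04 in *Yy1* KD, and that of *Tfam* to *Polrmt* was -1.24 ± 0.07 and -0.82 ± 0.17 (SD, n = 3 each). These ratios combine genes that were not called on their own, and they were not tested.

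*Polg*, the catalytic subunit of the DNA polymerase, and *Twnk*, the helicase of the replication fork, encode proteins that copy mitochondrial DNA together. *Polg* (ENSMUSG00000039176.17, chr7:79446231-79466362, minus strand) was low, at 7.51, 8.38 and 8.41 TPM in control KD and 7.36, 6.15 and 8.13 TPM in *Yy1* KD. The values overlapped (log2 difference -0.15, 95% interval -0.52 to 0.21, limma adjusted p = 0.595). *Twnk* (ENSMUSG00000025209.5, chr19:45005663-45012762, plus strand) was at 33.0, 32.1 and 35.4 TPM in control KD and at 34.8, 38.5 and 38.9 TPM in *Yy1* KD. Here too a *Yy1* KD value lay among the controls, and the log2 difference of 0.15 (95% interval -0.06 to 0.37) was not called (limma adjusted p = 0.359). Exons of *Polg* are shared with *Fanci* for 8.6% of their bases and those of *Twnk* with *Mrpl43* for 12.6%. The log2 ratio of *Polg* to *Twnk* was -2.05 ± 0.10 in control KD and -2.38 ± 0.23 in *Yy1* KD (SD, n = 3 each), lower in all *Yy1* KD libraries.

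**Figure D2:**
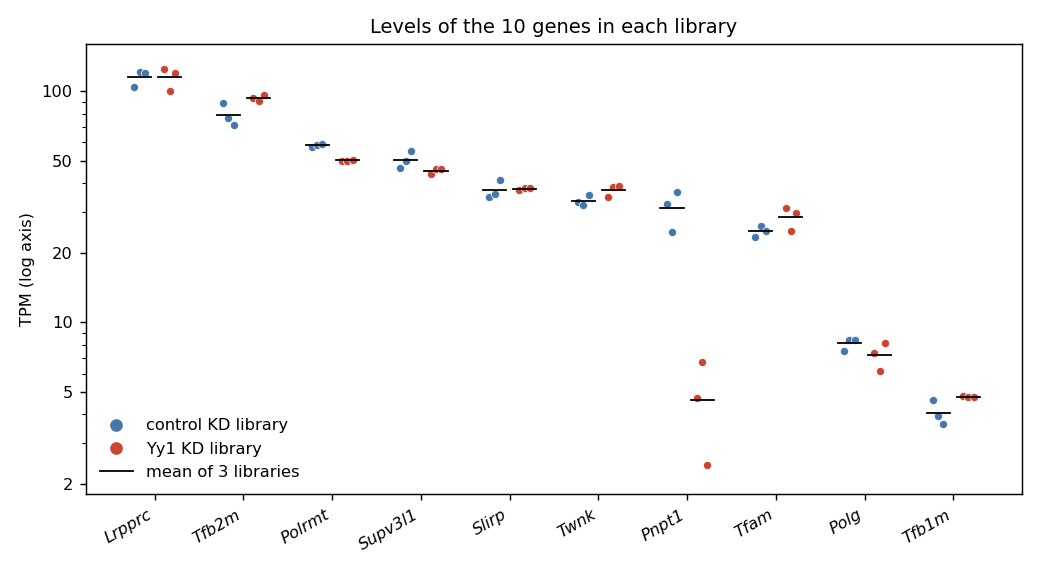
TPM of the 10 genes on a log axis, 1 point per library, control KD in blue and *Yy1* KD in red, black lines for the means of 3 libraries. *Pnpt1* falls from 24.6 to 36.6 TPM in control KD to 2.41 to 6.72 TPM in *Yy1* KD, and the other 9 genes keep their order.

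Among the 9 genes other than *Pnpt1*, 0 were called in limma, and 2, *Polrmt* and *Tfb2m*, had an unadjusted p under 0.05, as did 4123 of all 17353 genes tested. Over all genes, 4.2% were called as lower and 1.92% as higher in *Yy1* KD, and 0 of 9 does not stand apart from such shares. With limma-voom on the recovered read pairs, 0 of the 9 were called as well. The differences were lower for 4 and higher for 5 of the 9 genes, with a median of 0.02, and the median over all genes tested was -0.03. The groups did not overlap in 4 of the 9 genes, *Supv3l1*, *Polrmt*, *Tfb2m* and *Tfb1m*, and this was so for 30.1% of all genes tested. For each of these 4 genes the two-sided exact permutation test gave p = 0.1, the smallest value that 3 libraries against 3 allow. A p above the threshold does not show equal levels. The 95% intervals of the 9 genes ran from -0.52 at the lowest to 0.58 at the highest. *Pnpt1* was picked for its fall, so its difference is no yardstick for these intervals.

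**Figure D3:**
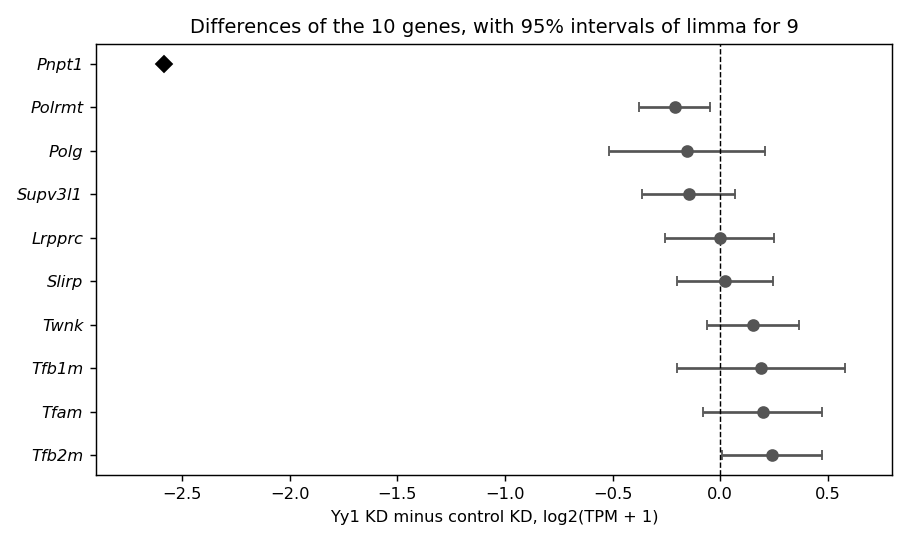
Difference of *Yy1* KD minus control KD on the scale of log2(TPM + 1) for the 10 genes, with 95% intervals of limma for the 9 genes tested and a diamond without an interval for *Pnpt1*, which was not tested. *Pnpt1* is at -2.58 and the others lie between -0.21 and 0.24.

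In control KD the order of the levels was *Lrpprc*, *Tfb2m*, *Polrmt*, *Supv3l1*, *Slirp*, *Twnk*, *Pnpt1*, *Tfam*, *Polg* and *Tfb1m*. The libraries of neighbours in this order overlapped for *Slirp* and *Twnk*, for *Twnk* and *Pnpt1* and for *Pnpt1* and *Tfam*, and did not overlap for the others. In *Yy1* KD the order of the other 9 genes was the same, with overlap between *Slirp* and *Twnk*, and *Pnpt1* came last, where its range overlapped that of *Tfb1m*. *Pnpt1* was at the 74.9th percentile of the genes tested by its control level, between *Twnk* (76.2) and *Tfam* (70.6).

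**Figure D4:**
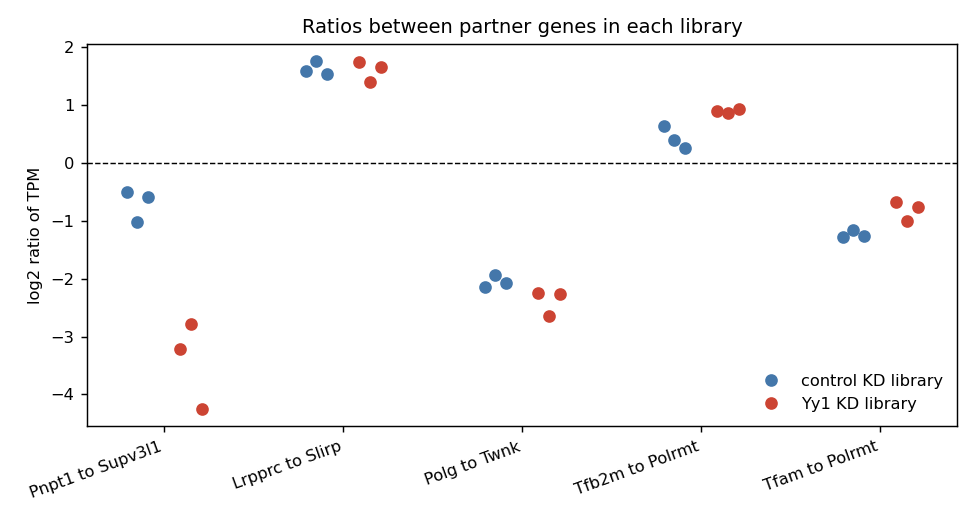
Log2 ratio of TPM between genes whose proteins work together, 1 point per library, control KD in blue and *Yy1* KD in red. *Pnpt1* to *Supv3l1* goes from a mean of -0.70 to -3.42, and *Lrpprc* to *Slirp* is 1.63 and 1.60.

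The other genes of mitochondrial RNA and DNA metabolism were taken from 4 lists with 61 genes, all of which passed the filter. Of these, 4 fell, 2 rose and 55 were not called, beside shares of 4.2% lower and 1.92% higher over all genes tested, against which the counts of each list below can be read. Their median log2 difference was -0.05, with 38 lower and 23 higher. No gene was called among 6 further genes of transcription, the terminators of the *Mterf* family and the elongation factor *Tefm*, where limma gave 0 unadjusted p under 0.05. *Tefm* was at 25.2, 22.0 and 22.3 TPM in control KD and at 24.0, 13.2 and 14.3 TPM in *Yy1* KD, so that 1 *Yy1* KD library was like the controls and the remaining libraries were lower (log2 difference -0.46, limma adjusted p = 0.270). *Mterf4*, a terminator family member that acts on the mitochondrial ribosome, was nearly the same in both groups (log2 difference 0.07, limma adjusted p = 0.772).

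Among 14 further genes of DNA replication and upkeep, 0 were called in limma, and 1 had an unadjusted p under 0.05. The most abundant were *Lig3*, the DNA ligase of mitochondria, at 122 and 119 TPM on average (limma adjusted p = 0.791), and *Mgme1*, a nuclease that trims DNA ends, at 61.3 ± 0.556 and 51.7 ± 13.1 TPM (SD, n = 3 each). *Mgme1* shared the pattern of *Tefm*, with 66.8 TPM in *Yy1* KD replicate 1 and 43.3 and 45.1 TPM in replicates 2 and 3, and it was not called (limma adjusted p = 0.382). *Pnpt1* did not follow this split, being highest in replicate 2.

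In RNA turnover and RNA granules, 1 of 15 further genes fell and 0 rose. *Ptcd2*, a pentatricopeptide repeat protein involved in processing the cytochrome b transcript, was at 63.3, 75.8 and 70.4 TPM in control KD and at 42.4, 33.9 and 38.4 TPM in *Yy1* KD. The groups were well apart, and the log2 difference was -0.85 (standard error 0.11, limma adjusted p = 0.0135). *Grsf1*, which binds G-rich RNA and also recruits RNA to the degrading complex, was at 102 and 95.1 TPM on average (log2 difference -0.10, limma adjusted p = 0.534). *Pnpt1* itself is of this group but was not counted in it.

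Most calls were in tRNA and rRNA processing and modification, where 3 of 26 genes fell and 2 rose. *Rpusd4*, a pseudouridine synthase of the mitochondrial ribosomal RNA, went from 15.6, 11.0 and 12.7 TPM to 1.9, 2.2 and 1.75 TPM. This was 14.9% of the control, close to the 14.7% of *Pnpt1* (log2 difference -2.24, standard error 0.18, limma adjusted p = 0.00405). *Mto1*, which modifies the wobble base of mitochondrial tRNAs, fell to 29.3% of the control (log2 difference -1.45, limma adjusted p = 0.0127). *Hsd17b10*, a subunit of mitochondrial RNase P, fell to 31.5% (log2 difference -1.41, limma adjusted p = 0.0154).

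The partner subunit of RNase P, *Trmt10c*, moved the other way. It was at 42.6, 40.9 and 40.4 TPM in control KD and at 57.4, 51.0 and 61.8 TPM in *Yy1* KD (log2 difference 0.44, limma adjusted p = 0.0447). *Elac2*, the enzyme that cuts the 3′ end of mitochondrial and cytosolic tRNAs, rose from 60.8 ± 2.35 to 85.3 ± 2.98 TPM (SD, n = 3 each; log2 difference 0.48, limma adjusted p = 0.0194). *Prorp*, the nuclease subunit of RNase P, was at 98.3% of its control level (log2 difference -0.04, limma adjusted p = 0.924), and 21 of the 26 genes were not called. Not all of those were as flat as *Prorp*. Of the 26 genes, 19 were lower and 7 higher. An unadjusted p under 0.05 (limma) was reached by 11 of the 26, as by 4123 of all 17353 genes tested.

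**Figure D5:**
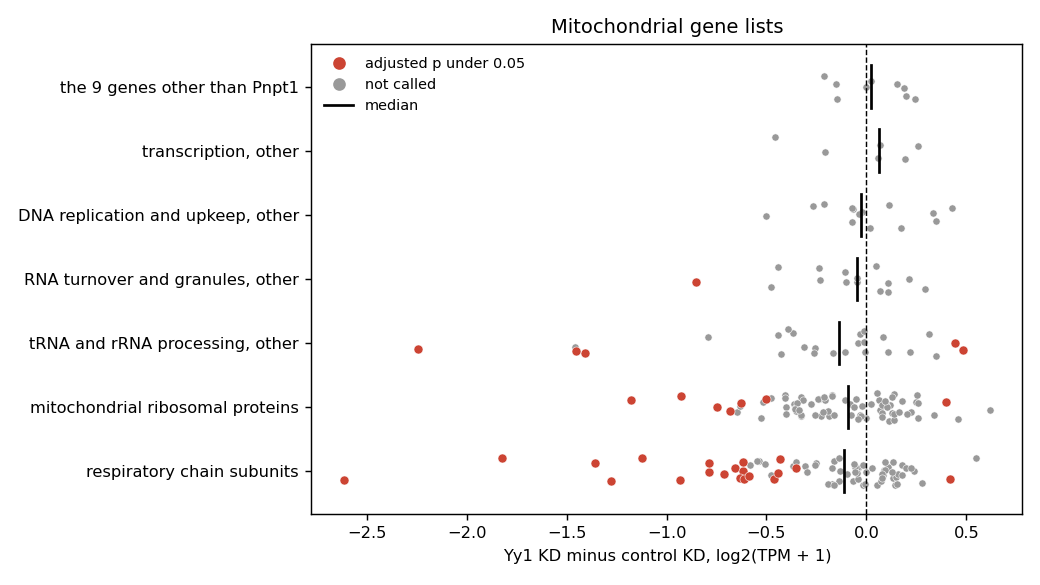
Difference of *Yy1* KD minus control KD on the scale of log2(TPM + 1) for each gene tested of 7 lists, genes called at an adjusted p under 0.05 in red, others in grey, black lines for the medians. Red points are absent among the 9 genes other than *Pnpt1* and number 20 among the respiratory chain subunits, 19 of them on the left of 0.

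The genes whose products the machinery serves were compared in the same fit. Of 76 nuclear-encoded respiratory chain subunits, 19 fell and 1 rose (median log2 difference -0.12), and of 78 mitochondrial ribosomal proteins, 6 fell and 1 rose (median -0.09), where 4.2% of all genes tested fell and 1.92% rose. *Ndufa5*, a subunit of complex I, fell from a mean of 59.5 ± 8.20 TPM to one of 16.3 ± 4.08 TPM (SD, n = 3 libraries in both groups, log2 difference -1.83, limma adjusted p = 0.0109), and *Ndufs8* was the subunit that rose (0.42, limma adjusted p = 0.0301). *Mrpl50* had the largest difference among the ribosomal proteins called, from 39.5 to 17.3 TPM (log2 difference -1.18, limma adjusted p = 0.0270). A difference in the share of calls between these lists and the 9 genes was not tested.

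Of 9 nucleoid proteins and mitochondrial proteases, limma called 0, and 2 had an unadjusted p under 0.05. *Clpx*, the chaperone subunit of a matrix protease, was at 271, 265 and 247 TPM in control KD and at 290, 333 and 335 TPM in *Yy1* KD, without overlap (log2 difference 0.29, limma adjusted p = 0.0951). Of 8 nuclear regulators of mitochondrial genes, 7 passed the filter and 1 rose. *Gabpa*, the DNA-binding subunit of the ETS factor NRF-2, was at 139, 149 and 144 TPM in control KD and at 185, 191 and 186 TPM in *Yy1* KD (log2 difference 0.38, standard error 0.06, limma adjusted p = 0.0259).

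Double-stranded mitochondrial RNA that polynucleotide phosphorylase fails to remove is known in other cells to reach cytosolic sensors that induce interferon genes. In these morulae, 16 of 22 genes for such sensors and responses stayed under 1 TPM in every library, and *Isg15*, *Ifit3*, *Ifit3b* and *Ifnb1* were at 0 in all 6. *Ifih1*, the sensor of long double-stranded RNA, reached at most 0.107 TPM in a control KD library and at most 0.2 TPM with the knockdown. Of the 5 genes that passed the filter, limma called 0, and 3 had an unadjusted p under 0.05. *Oas1a*, a synthase that responds to double-stranded RNA, was at 0.307, 0.308 and 0.782 TPM in control KD and at 1.23, 3.18 and 2.03 TPM in *Yy1* KD (log2 difference 1.07, limma adjusted p = 0.0991). All its control KD values were under 1 TPM, so *Oas1a* passed the filter through its *Yy1* KD values alone. Neither its p nor its place among the 3 genes counts as a test of a rise. *Adar*, which edits double-stranded RNA, was at 9.65, 11.1 and 9.91 TPM and at 18.7, 15.7 and 14.1 TPM, without overlap (log2 difference 0.60, limma adjusted p = 0.0577). *Mavs*, the mitochondrial adaptor of the sensors, overlapped between groups (log2 difference -0.14, limma adjusted p = 0.706).

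*Pnpt1* has cytosolic and nuclear counterparts in the RNA exosome, which also degrades RNA from the 3′ end. Of its 13 genes, 1 fell and 2 rose. *Exosc2*, a cap subunit, went from 43.4, 37.8 and 42.5 TPM to 14.6, 16.3 and 11.9 TPM (log2 difference -1.48, limma adjusted p = 0.00632). *Exosc10*, the nuclear exonuclease, went from 50.3, 55.9 and 55.5 TPM to 101.2, 97.7 and 110.4 TPM (log2 difference 0.92, limma adjusted p = 0.00632), and *Exosc9*, a core subunit, rose by less (0.40, limma adjusted p = 0.0304).

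Likeness to *Pnpt1* over the 6 libraries was the root mean square of the differences in log2 level relative to the control mean. With clone and predicted names left out, the nearest genes were sought among 6554 genes whose mean TPM was 10 or more. Those reported here were *Baz1a*, a subunit of chromatin remodelling complexes (0.355), *Thrap3*, a protein of mRNA splicing and transcription (0.441), *Zfp42*, a zinc finger relative of *Yy1* (0.499), and *Ddx3y* (0.609). *Baz1a* was left at 18.8%, *Thrap3* at 17.7%, *Zfp42* at 10.8% and *Ddx3y* at 20.7% of the control level. *Ddx3y* lies on the Y chromosome, and its level also depends on the number of male embryos in a pool. None of these 4 genes had a spread in *Yy1* KD like that of *Pnpt1*, with values such as 56.1, 64.1 and 56.3 TPM for *Baz1a*. The 7 other genes of the machinery that were abundant enough to be ranked lay between places 1958 (*Polrmt*) and 5534 (*Tfb2m*). The profile of *Pnpt1* is mainly the fall for which it was picked. Near places thus go to genes with falls of like size, and the far places of the 7 genes are no separate result.

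Genes downstream of *Pnpt1* did not share its fall. Within 1 Mb of its start, 14 other genes passed the filter, all on the downstream side. This window was chosen after values had been seen. Their log2 differences were between -0.85 (*Gm12088*) and 0.68 (*A630052C17Rik*) with a median of 0.28, and 3 were lower in *Yy1* KD. *Gm12088* was near the floor, at 1.86, 2.42 and 5.15 TPM in control KD and 0, 2.1 and 2.33 TPM in *Yy1* KD. The nearest, *Ppp4r3b*, starts 42.1 kb from *Pnpt1* and had means of 43.4 and 49.0 TPM (log2 difference 0.18). *Mtif2*, the initiation factor of mitochondrial translation, starts 395.7 kb away and had means of 31.6 and 35.1 TPM (log2 difference 0.15).

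No gene on the opposite strand started within 1000 bases of *Pnpt1*. Of the other 9 genes, 5 had such a partner. *Alkbh1*, a demethylase of tRNA and DNA that starts 121 bases from *Slirp*, was at 11.8 ± 0.632 and 8.76 ± 1.28 TPM (SD, n = 3 each; log2 difference -0.39, limma adjusted p = 0.159). *Mrpl43*, a ribosomal protein gene 779 bases from *Twnk*, was at 48.8 ± 1.32 and 38.1 ± 1.74 TPM, without overlap, and just missed the threshold (log2 difference -0.35, limma adjusted p = 0.0514). *Cnst*, 103 bases from *Tfb2m*, overlapped between groups (log2 difference -0.14, limma adjusted p = 0.679). *1700102H20Rik* beside *Tfb1m* and *Gm10616* beside *Polg* were too low to be tested.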

How the data were processed

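RNA-seq of 3 control KD and 3 *Yy1* KD libraries was used, grouped by their labels. The authors trimmed the reads with Trim Galore 0.6.7, aligned them to mm10 with HISAT2 2.2.1, removed ribosomal RNA with bedtools, counted read pairs on GENCODE genes with featureCounts 2.0.1 (without regard to strand, a pair on overlapping genes being split between these) and deposited TPM values. The filter required 1 TPM or more in 3 or more libraries. Since TPM values are no counts, limma 3.58.1 (R 4.3.3) with a variance trend was fitted to log2(TPM + 1), with two-sided p-values and Benjamini-Hochberg adjustment over all 17353 genes. Calls needed an adjusted p under 0.05, and "fell" and "rose" are used of called genes apart from *Pnpt1* and *Yy1*. TPM and exon lengths of GENCODE vM21 gave back the read pairs (98.1% of identifiers matched). The paper names a later release, so the recovered pairs and exon overlaps can differ from those of the authors. Between 80.8% and 81.6% of values under 20 pairs were whole within 0.05. They give the depth, and limma-voom on them was added as an alternative. Exon overlaps and coordinates come from the same annotation, and promoters from RefSeq. Levels given as a percentage are ratios of mean TPM.

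The 10 genes and the lists were chosen with earlier results of these data known. Named genes were drawn from the 10 genes, *Yy1*, the 5 genes most like *Pnpt1* and opposite-strand neighbours. Each short list gave its called genes, and its 2 most abundant genes were not always named. *Prorp* and the genes named of the double-stranded RNA list, the respiratory chain, the ribosomal proteins and the surroundings of *Pnpt1* were chosen after their values were seen. Alternatives were a pseudocount of 0.1, other filters, no variance trend, quantile normalization, median-ratio scaling, leaving out single libraries and a replicate block. The test was checked on simulated data. The results of 2 genes that the rule or lists include are not reported here. Repeats, binding sites and other stages were not analysed here.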

Additional observations from a re-analysis of the deposited data

How the results depend on the processing

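Over 14 alternatives, 0 of the 9 genes other than *Pnpt1* were called, and the lowest adjusted p was that of *Polrmt*, 0.0998 with a mean TPM of at least 5 (limma). *Tfb1m* could not be fitted there, being under that level. *Pnpt1* had log2 differences between -2.85 and -2.26. Of 139 values of single genes, those of *Pnpt1* included, 131 kept their sign. Other filters, no variance trend and the replicate block cannot change a log2 difference here, so agreement under these was fixed in advance. *Lrpprc* turned to 0.023 with median-ratio scaling, 0.040 with quantile normalization and 0.006 with limma-voom, and was between -0.068 and 0.090 when 1 library was left out, where *Slirp* was between -0.027 and 0.097. Counts over all genes moved more. Lower and higher calls were 1285 and 801 with limma-voom, 270 and 77 without a filter and 382 and 132 without a variance trend, and leaving out 1 library gave 53 to 326 and 22 to 92, fewest without control KD replicate 3. With the replicate block, 218 lower and 69 higher genes were called, but deviations of equally numbered libraries correlated at -0.0039, 0.0319 and 0.0747 only, so the numbers were not taken to pair them. Counting the letters added for *Pnpt1* as a form of the YY1 motif took the promoters with one from 1 to 2 of 10. That step was certain, since they were searched after the promoter of *Pnpt1* had been seen. The cause of the shifts in calls was not tested. With 42 read pairs for *Pnpt1* in *Yy1* KD replicate 3, its level there is known only within the interval given, and with 3 libraries per group the 95% intervals of the 9 genes bound what could be seen.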
